A study of Rattus norvegicus with 6 samples.

Results

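The subunits of the nuclear RNA polymerases I, II and III, together with the mitochondrial polymerase Polrmt, were followed in rat neuronal progenitor cells given corticosterone. Members were all probe sets whose single gene symbol in the platform annotation named a subunit of polymerase I, II or III, or Polrmt. These were 37 of the 31099 probe sets on the array, and they measured 30 of the 14217 genes with a single symbol. The subunits listed under older names as Znrd1, Cd3eap and Twistnb appear here as Polr1h, Polr1g and Polr1f. The cells came from cerebral cortices of E15.5 rat embryos and grew on fibronectin with 20 ng/ml basic fibroblast growth factor, a mitogen that both groups received. The tested cultures were given 1 µM corticosterone, the main glucocorticoid hormone of rodents, for 48 h, and the control cultures were given the solvent DMSO (vehicle) for 48 h. Each of 3 corticosterone and 3 vehicle RNA samples went onto its own Affymetrix array, and a corticosterone sample was coupled with a vehicle sample in couples 1, 2 and 3. The labels used here give neither the strain nor the animals behind a couple, nor whether couples were separate cultures, so p-values measure only the spread between these samples, which may be technical.

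RNA polymerase I makes the precursor of the large ribosomal RNAs, polymerase II makes messenger RNA, and polymerase III makes transfer RNA and the smallest ribosomal RNA. Each enzyme is built on a catalytic core of its own largest and second-largest subunits. Some small subunits belong to all of the nuclear enzymes, and a further pair is shared by polymerases I and III, so the transcripts fall into groups by the enzymes that use them. Polrmt is a single-subunit enzyme, related to phage polymerases, that transcribes mitochondrial DNA. The roles given below are known mainly from yeast and human enzymes. Dividing cells make large amounts of ribosomal and transfer RNA, so polymerases I and III are associated with cell growth.

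Signals are the deposited MAS5 values, in linear units of brightness for each probe set. The median signal of an array lay between 124 and 134 on the corticosterone arrays and between 108 and 122 on the vehicle arrays. All 37 subunit probe sets lay above the background signal of 22.8 on every array, with signals from 66.4 (Polr3f) to 7521 (Polr2f), and all 37 passed the filter on low signals. Arrays are bulk measurements, in which fewer cells of a type and less RNA per cell cannot be told apart. The 7 neural stem and progenitor markers summed to 60447, 63379 and 67238 on the corticosterone arrays of couples 1, 2 and 3. On the vehicle arrays they summed to 54870, 60141 and 66578, lower in each couple. Most of these sums was Vim and Fabp7, and of the 7 only Nes passed, as higher (log2 fold change 0.26, limma adjusted p = 0.019). In couple 3 Fabp7, Sox2 and Hes1 were lower with corticosterone and the other markers higher. The 6 microglial markers summed to 259 to 277 with corticosterone and to 201 to 218 with vehicle (Itgam at background throughout). The 4 endothelial markers summed to 94.0 to 156 with corticosterone and to 50.1 to 111 with vehicle. Only 2 of the microglial and 0 of the endothelial markers passed the filter on low signals. Astrocyte markers (5 genes, 0 at background on all arrays) summed to 793 to 988 with corticosterone and to 240 to 329 with vehicle. Most of the corticosterone sum was S100b (746, 676 and 607 in couples 1, 2 and 3), and Slc1a2 overlapped between groups. Only 2 of the 5, S100b and Gfap, passed the filter on low signals. Aqp4 was below background on each vehicle array (17.2, 2.1 and 11.7 in couples 1, 2 and 3). Oligodendrocyte lineage markers (4 genes, 0 at background) summed to 1659, 1123 and 2527 with corticosterone in couples 1, 2 and 3. With vehicle they summed to 4625, 1648 and 4421, so the corticosterone sum was lower in each couple. Most of that difference was Pdgfra, at 633, 214 and 1000 with corticosterone against 2892, 538 and 2970 with vehicle. Olig2 did not pass (limma adjusted p = 0.066) and was slightly higher with corticosterone in couple 3 (949 against 929). Neuronal markers (6 genes, 0 at background) summed to 7263, 9108 and 10882 with corticosterone and to 10471, 10005 and 10815 with vehicle. Most of that sum was Map2, which did not pass. Tubb3 alone of the 6 passed, as lower (log2 fold change −0.52, limma adjusted p = 0.034), while Rbfox3 was higher in all 3 couples. The 7 meningeal, pericyte and fibroblast markers set couple 2 apart, at 2170 with corticosterone and 1444 with vehicle, against 187 and 357 on the other corticosterone arrays and 126 and 246 on the other vehicle arrays. A sum follows the brightest genes of its list, and single genes can differ from it, as Cspg4 of the oligodendrocyte list, which was higher with corticosterone in couples 2 and 3. The part of these marker levels in the subunit results was not tested. Of 7 known glucocorticoid receptor target genes 6 rose, among them Per1 and Fkbp5.

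Polymerase subunit transcripts that changed were all lower with corticosterone. Of the 30 genes, 9 fell, 0 rose and 21 did not pass (limma, Benjamini-Hochberg adjusted p under 0.05 over 18625 probe sets), where 7.77% of the 9910 genes tested fell and 11.7% rose. Before adjustment, 15 subunit genes were lower and 0 were higher at p under 0.05, against 16.6% of all genes lower. A total of 20 subunit genes were lower in all 3 couples, against 27.2% of all genes. Counted by probe set, 11 of 37 fell and 0 rose, against 6.45% and 9.4% of all probe sets tested. The median log2 fold change of corticosterone over vehicle was −0.17 over the 30 subunit genes and −0.0021 over all genes tested. Subunit probe sets were brighter than most, with a median log2 signal per array of 10.0 to 10.5, against 8.8 to 8.9 over all tested. With the dimmest 60% of probe sets left out, 9 subunit genes fell again, against 9.76% of all genes then tested. The falls were small, with corticosterone at 0.644 to 0.85 times vehicle on the scale of log2(signal + 28.6). The count rests on few samples, since 2 genes passed without couple 1 and 2 without couple 2, namely Polr2f and Polr2h each time, and 9 without couple 3. Of all genes tested 3.95%, 2.69% and 6.85% were lower without couples 1, 2 and 3, so calls became fewer across the array too. Without the couple as a block 0 genes passed, against 0.363% of all genes lower. Without the intensity trend of the variance 2 genes passed, against 1.78% of all genes lower.

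Of the 6 genes whose product is in polymerase I alone, 4 fell. Of the 6, 0 passed without couple 1, without couple 2, without the couple as a block or without the intensity trend. Without the filter on low signals 2 passed, where 2.88% of all genes were lower. Of the 8 genes of polymerase III alone 2 fell, and of the 8 genes of polymerase II alone 0 did (limma, where 3 were lower and 0 were higher at p under 0.05 before adjustment). Of the 2 genes shared by polymerases I and III 1 fell, and so did 2 of the 5 genes shared by all of the nuclear enzymes. The median log2 fold change was −0.34 for polymerase I, −0.15 for polymerase III, −0.09 for polymerase II, −0.21 for the pair shared by I and III, and −0.25 for the subunits shared by all. Counting shared subunits under every enzyme that holds them, 7 of 13 polymerase I genes, 5 of 15 polymerase III genes and 2 of 13 polymerase II genes fell, and those 2 of polymerase II were both shared subunits. Members of an enzyme are not replicates, and the difference between the enzymes was not tested. After median centring of the arrays, where 15.3% of all probe sets and 18.3% of all genes were lower, 3 probe sets of polymerase II alone passed as lower, namely those of Polr2c, Polr2i and Polr2m. With the median over a gene's probe sets in place of the brightest, 9 subunit genes again passed, with Polr1f in place of Polr1b. Of all genes 7.26% were lower there.

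**Figure D1:**
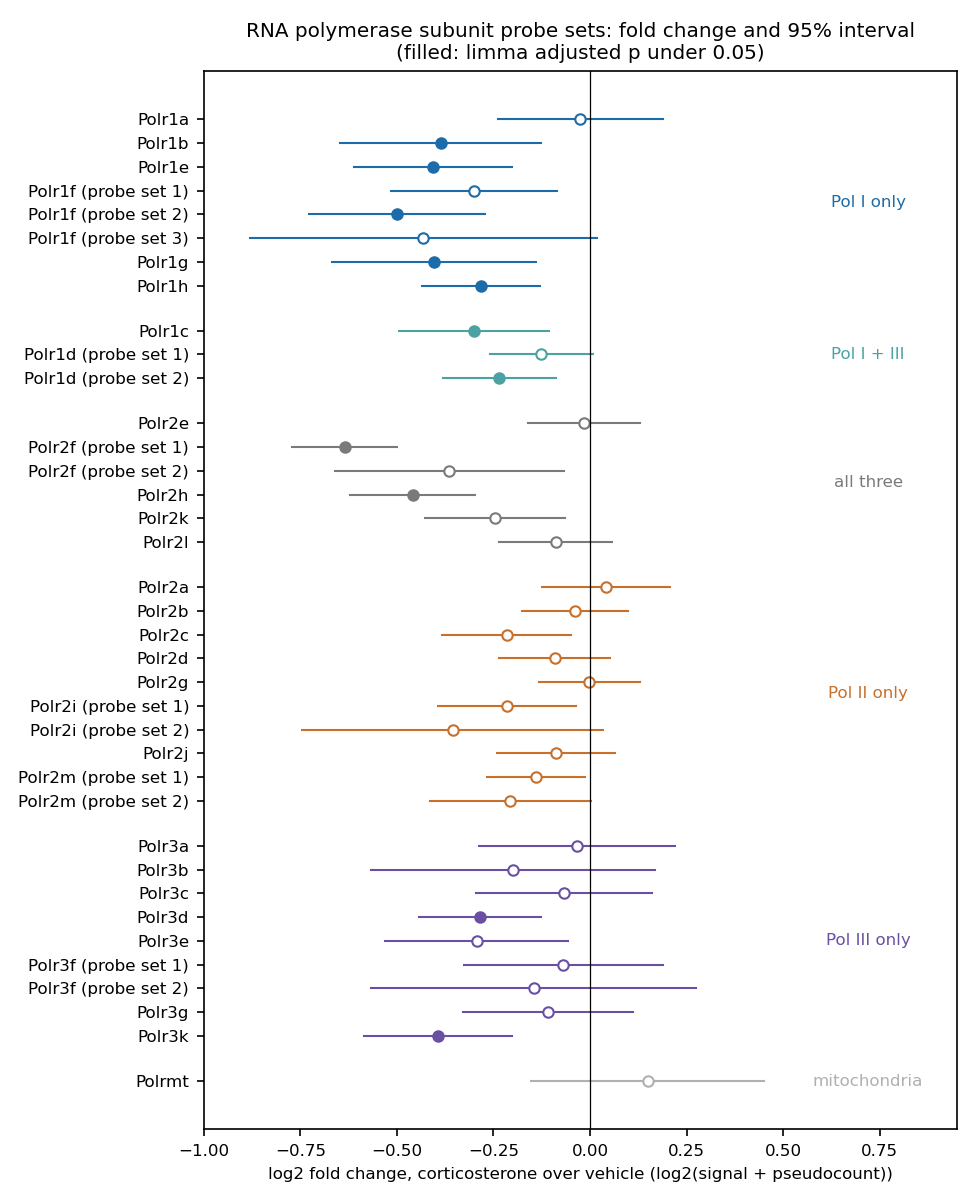
Log2 fold change of corticosterone over vehicle (x axis, on the scale of log2(signal + pseudocount)) for each of the 37 subunit probe sets, grouped by the enzyme or enzymes that hold the subunit; points are limma estimates, lines are 95% intervals, and filled points passed an adjusted p of 0.05. The 11 filled points all lie left of 0, and none of them belongs to polymerase II alone.

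Among the subunits shared by all of the nuclear enzymes, Polr2f and Polr2h had the lowest adjusted p of all members. Polr2f encodes a small subunit of the clamp region, which is needed for the assembly and stability of the enzymes. Its signal was 4370, 3253 and 5088 on the corticosterone arrays of couples 1, 2 and 3, against 7311, 4962 and 7521 on their vehicle arrays. Each corticosterone array lay below the vehicle array of its couple, although the groups overlapped because couple 2 was low under both treatments. The log2 fold change was −0.63 ± 0.06 (SE, n = 3 couples; limma adjusted p = 7.5e-05). A second, dimmer probe set of Polr2f had signals of 249, 210 and 273 with corticosterone and 377, 309 and 283 with vehicle, and did not pass (−0.36, adjusted p = 0.095).

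Polr2h encodes a small subunit that binds near the largest subunit. Its signal was 1332, 1189 and 1437 on the corticosterone arrays, against 1952, 1644 and 1877 on the vehicle arrays. The groups did not overlap, and the log2 fold change was −0.46 ± 0.07 (SE; limma adjusted p = 0.0016). Polr2f and Polr2h passed without any 1 of the couples. Neither passed once the block was dropped (adjusted p = 0.15 for Polr2f and 0.078 for Polr2h).

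The other shared subunits did not pass. Polr2k, a small zinc-binding subunit, had 2594, 2938 and 3827 with corticosterone and 3061, 2992 and 5329 with vehicle (log2 fold change −0.25, limma adjusted p = 0.066). It was lower within each couple, and RefSeq lists a pseudogene copy that could share its probes. Shared probes were not checked, for Polr2k or for any other member. Polr2l, the other small zinc-binding subunit, had a log2 fold change of −0.09 with a 95% interval of −0.24 to 0.06. Polr2e, a subunit of the jaw that grips the incoming DNA, had 2211, 2043 and 2131 with corticosterone and 2221, 2035 and 2201 with vehicle. These signals overlapped almost completely, and its interval of −0.16 to 0.13 leaves out a fall of the size seen for Polr2f.

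**Figure D2:**
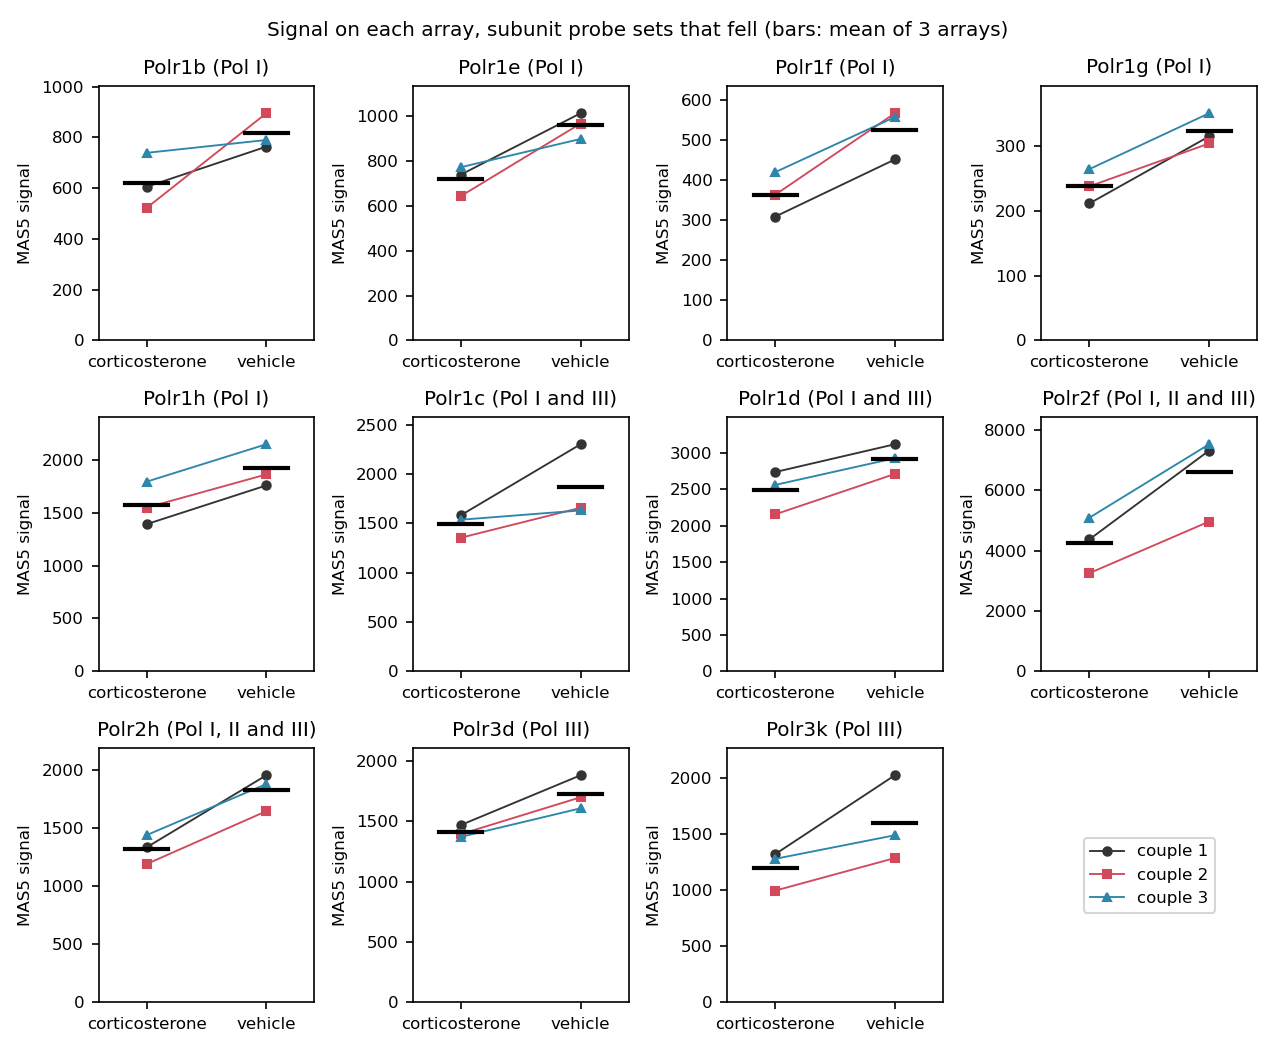
MAS5 signal (y axis, linear, from 0) on each corticosterone array (left) and vehicle array (right) for the 11 probe sets that fell, with the arrays of a couple joined by a line and the mean of each group of 3 as a bar. Every line runs down towards corticosterone, and the groups overlap for Polr1h, Polr1d, Polr2f and Polr3k.

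In polymerase I, the 4 genes of its own that fell were Polr1b, Polr1e, Polr1g and Polr1h. Polr1b, the second-largest subunit, which forms the active centre together with the largest, had 605, 522 and 739 with corticosterone and 763, 895 and 789 with vehicle. The groups did not overlap, but couple 3 was close (log2 differences of −0.32, −0.75 and −0.09 in couples 1, 2 and 3), and the adjusted p was 0.047 (log2 fold change −0.39 ± 0.12, SE, limma). Polr1e and Polr1g encode a dimer that resembles general initiation factors of polymerase II and helps to start transcription. Polr1e had 739, 644 and 772 with corticosterone and 1013, 967 and 898 with vehicle, with an estimate of −0.41 ± 0.09 on the log2 scale (SE; limma adjusted p = 0.013). Polr1g had 212, 238 and 265 with corticosterone and 316, 305 and 351 with vehicle, with an estimate of −0.40 ± 0.12 on the log2 scale (SE; limma adjusted p = 0.042). For both partners all corticosterone arrays lay below all vehicle arrays.

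Polr1h, a zinc-ribbon subunit that aids cleavage of the nascent RNA, had 1391, 1547 and 1792 with corticosterone and 1757, 1861 and 2146 with vehicle. Its groups overlapped, yet the differences within couples were alike, at −0.33, −0.26 and −0.26 on the log2 scale (−0.28 ± 0.07, SE; limma adjusted p = 0.018). Polr1f, a stalk subunit that contacts the initiation factor Rrn3, was measured by 3 probe sets. The brightest, which stands for the gene in the counts, had 1091, 806 and 1182 with corticosterone and 1303, 1215 and 1249 with vehicle and did not pass (−0.30, adjusted p = 0.060). The second had 309, 363 and 420 with corticosterone and 451, 567 and 557 with vehicle and fell (−0.50 ± 0.10, SE; limma adjusted p = 0.0076). The dimmest had 67.1, 87.3 and 106 with corticosterone and 160, 103 and 120 with vehicle and did not pass (−0.43, adjusted p = 0.18). All 3 probe sets of Polr1f were lower within every couple, and the groups overlapped only for the dimmest.

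Polr1a, the largest subunit of polymerase I, did not pass. It had 548, 491 and 569 with corticosterone and 597, 512 and 529 with vehicle. Its groups overlapped, and the log2 fold change was −0.03 with a 95% interval of −0.24 to 0.19 (limma adjusted p = 0.90). The calls of Polr1b, Polr1e, Polr1g and Polr1h were lost without couple 1 and without couple 2, and Polr1g did not pass whichever couple was left out. Over all genes 3.95% and 2.69% were lower without couples 1 and 2, against 7.77% with all samples. Whether the loss was particular to these genes or came with fewer samples was not tested. Without couple 1, Polr1b, Polr1e, Polr1g and Polr1h had adjusted p-values of 0.083, 0.058, 0.20 and 0.095, and without couple 2 of 0.36, 0.14, 0.14 and 0.098. Without couple 3 Polr1g did not pass (0.091), while the brightest probe set of Polr1f did (0.028), so the count of 9 genes was kept with a different gene.

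Polr1c and Polr1d encode the pair of subunits shared by polymerases I and III, on which both enzymes are assembled. Polr1c had 1583, 1355 and 1538 with corticosterone and 2303, 1659 and 1632 with vehicle, and fell (log2 fold change −0.30 ± 0.09, SE; limma adjusted p = 0.040). Its groups did not overlap, but the differences within couples ran from −0.53 in couple 1 to −0.08 in couple 3. The brighter probe set of Polr1d had 3951, 3666 and 4278 with corticosterone and 4484, 3960 and 4545 with vehicle and did not pass (−0.13, adjusted p = 0.19). The other had 2735, 2154 and 2558 with corticosterone and 3116, 2709 and 2925 with vehicle and fell (−0.23 ± 0.07, SE; limma adjusted p = 0.034). Both were lower within each couple. Without couple 1 the adjusted p was 0.30 for Polr1c and 0.073 for the Polr1d probe set that fell, and without couple 2 it was 0.17 and 0.23. Without couple 3 Polr1c passed (0.016) and that Polr1d probe set did not (0.065).

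In polymerase III the genes that fell were Polr3d and Polr3k. Polr3d, which forms a dimer with Polr3e that resembles a polymerase II initiation factor, had 1468, 1393 and 1370 with corticosterone and 1880, 1698 and 1606 with vehicle. The groups did not overlap (log2 fold change −0.29 ± 0.07, SE; limma adjusted p = 0.021). Its partner Polr3e had 487, 366 and 442 with corticosterone and 540, 534 and 522 with vehicle, which did not overlap either, but it did not pass (−0.29, adjusted p = 0.092). Polr3k, a small subunit needed for termination and RNA cleavage, had 1321, 996 and 1280 with corticosterone and 2025, 1287 and 1490 with vehicle. It was lower in each couple, with overlap because couple 2 was low under both treatments (−0.39 ± 0.09, SE; limma adjusted p = 0.011). Without couple 1 the adjusted p was 0.12 for Polr3d and 0.098 for Polr3k, and without couple 2 it was 0.12 and 0.070.

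The catalytic pair and the initiation trimer of polymerase III did not pass. Polr3a, the largest subunit, had 488, 396 and 399 with corticosterone and 411, 440 and 460 with vehicle, so that couple 1 ran the other way from couples 2 and 3 (log2 fold change −0.03, 95% interval −0.29 to 0.22). Polr3b, the second-largest, had 258, 152 and 162 with corticosterone and 217, 249 and 190 with vehicle, again with couple 1 opposite to the others (−0.20, interval −0.57 to 0.17). The trimer of Polr3c, Polr3f and Polr3g, which opens the promoter DNA, had log2 fold changes of −0.07, −0.07 and −0.11 and adjusted p-values of 0.72, 0.75 and 0.52 in limma. The second probe set of Polr3f was dim (66.4 to 103 with corticosterone and 75.5 to 128 with vehicle) and had an interval of −0.57 to 0.28.

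None of the 8 genes of polymerase II alone passed. Polr2a encodes the largest subunit, whose repeated tail is phosphorylated during transcription. It had 1217, 1975 and 1873 with corticosterone and 1205, 2062 and 1659 with vehicle. The arrays of a couple were close to each other while couple 1 lay below the other couples under both treatments, and the log2 fold change was 0.04 with a 95% interval of −0.12 to 0.21. Polr2b, the second-largest subunit, had 3553, 3366 and 3336 with corticosterone and 3488, 3585 and 3467 with vehicle (−0.04, interval −0.18 to 0.10). The stalk subunits Polr2d and Polr2g had log2 fold changes of −0.09 and −0.0017, with intervals of −0.24 to 0.05 and −0.13 to 0.13.

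The assembly pair of polymerase II, Polr2c and Polr2j, corresponds to Polr1c and Polr1d of the other enzymes. Polr2c had 1471, 1158 and 1236 on the corticosterone arrays and 1644, 1467 and 1381 on the vehicle arrays (log2 fold change −0.22, limma adjusted p = 0.081). It was lower in each couple while the groups overlapped. Polr2j had −0.09 (interval −0.24 to 0.06). Polr2i, the counterpart of Polr1h and Polr3k, had 2080, 2056 and 2184 with corticosterone and 2837, 2176 and 2378 with vehicle (−0.21, adjusted p = 0.099). Its dim probe set, at 76.8 to 81.3 with corticosterone and 99.4 to 119 with vehicle, did not overlap between groups but did not pass (adjusted p = 0.21). Polr2m encodes a factor that binds polymerase II and makes it depend on the Mediator complex. Its brighter probe set had 6318, 6090 and 6592 with corticosterone and 6883, 6985 and 7064 with vehicle, which did not overlap (−0.14, adjusted p = 0.13), and its other had a log2 fold change of −0.21 (adjusted p = 0.17).

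Polrmt ran the other way from the nuclear subunits without passing. It had 243, 242 and 294 with corticosterone and 227, 254 and 211 with vehicle, with overlap and with a lower value in couple 2 (log2 fold change 0.15, 95% interval −0.15 to 0.45, limma adjusted p = 0.52). It was 1 of 2 genes with a positive estimate, the other being Polr2a, which was at −0.065 after median centring of the arrays.

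Corticosterone arrays lay wholly below vehicle arrays for 12 of the 37 subunit probe sets (32.4%), against 10.1% of all probe sets tested. Of these 12, 7 passed and 5 did not. The couples differed in the size of the differences. In couples 1, 2 and 3 the median log2 difference was −0.33, −0.44 and −0.15 over the genes of polymerase I alone, and −0.12, −0.09 and −0.06 over those of polymerase II alone, so polymerase I lay lower in every couple. The genes of polymerase III alone had medians of −0.08, −0.30 and −0.20, which in couple 1 was not below polymerase II. The subunits shared by all of the enzymes had −0.24, −0.08 and −0.38. Over all genes tested the medians were 0.0079, 0.0025 and −0.0073.

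**Figure D3:**
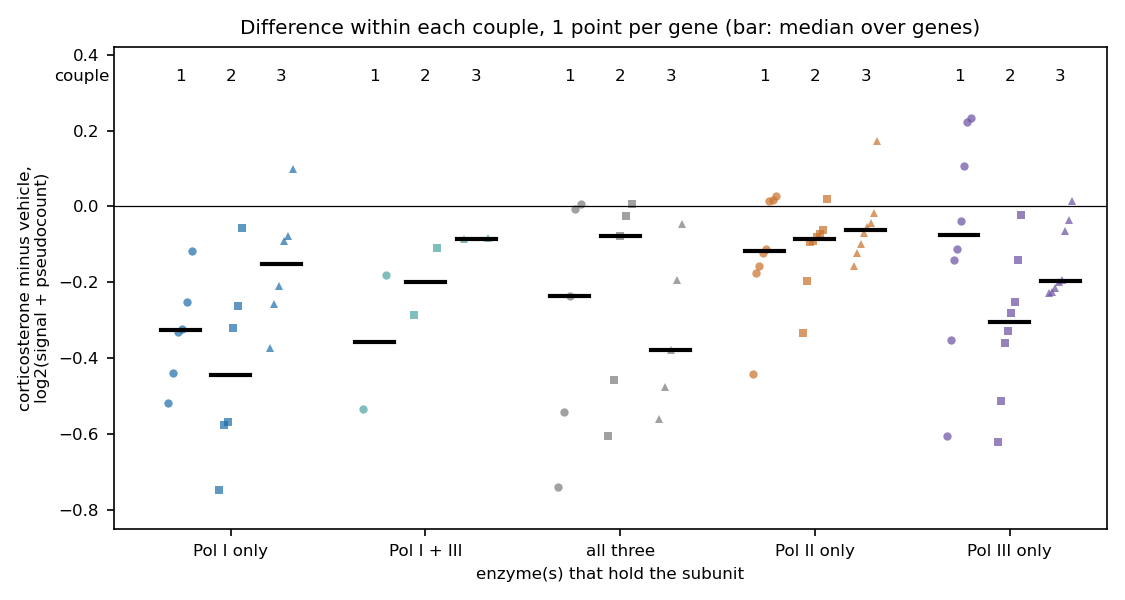
Difference of log2(signal + pseudocount), corticosterone minus vehicle (y axis), within couples 1, 2 and 3 for each subunit gene, grouped by the enzyme or enzymes that hold it; symbols are genes and bars are medians over genes. The polymerase I bars lie at −0.33, −0.44 and −0.15 and the polymerase II bars at −0.12, −0.09 and −0.06.

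In the moderated F-test of the couple terms 7 of 37 subunit probe sets passed (18.9%), against 15.1% of all probe sets tested, a share near the background. They were those of Polr2f, Polr2k, Polr2a, Polr2d, Polr2g, Polr3k and the dimmer probe set of Polr2m (limma adjusted p from 0.0011 to 0.032). Of the stalk pair, Polr2d was at 2709, 1975 and 2014 on corticosterone arrays and 2929, 2112 and 2114 on vehicle arrays. Polr2g was at 5045, 3831 and 3915 with corticosterone and 4987, 3776 and 4033 with vehicle. Both were highest in couple 1, where Polr2a was lowest, and Polr2k was highest in couple 3. Couple 1 was also highest under both treatments for factors outside the polymerases such as Taf9, Cdk9 and Iws1. Without the intensity trend 64 of all probe sets tested differed between couples.

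The promoters of 5 genes that fell are shown to let their sequence be read beside their change: Polr2f and Polr2h with the lowest adjusted p, Polr1g and its dimer partner Polr1e, and Polr3k of polymerase III. Each runs from 250 bases before to 50 bases after the gene's start, 5′ to 3′ on the gene's strand, from RefSeq on build GRCr8. They lie at chr7:112592814-112593113 (plus strand) for Polr2f, chr11:93700822-93701121 (minus strand) for Polr2h, chr1:88138720-88139019 (minus strand) for Polr1g, chr5:64074873-64075172 (plus strand) for Polr1e and chr3:189360099-189360398 (plus strand) for Polr3k. Capitals mark CACGTG, the E-box bound by Myc-type and other helix-loop-helix factors, and a core bound by ETS-type factors, CCGGAAG read on either strand.
Polr2f: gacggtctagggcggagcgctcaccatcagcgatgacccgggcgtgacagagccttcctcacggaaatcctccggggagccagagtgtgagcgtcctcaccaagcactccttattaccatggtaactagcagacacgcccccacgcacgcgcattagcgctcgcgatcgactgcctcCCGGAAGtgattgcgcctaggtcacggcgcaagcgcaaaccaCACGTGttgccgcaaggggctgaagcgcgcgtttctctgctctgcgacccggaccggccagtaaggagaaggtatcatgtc
Polr2h: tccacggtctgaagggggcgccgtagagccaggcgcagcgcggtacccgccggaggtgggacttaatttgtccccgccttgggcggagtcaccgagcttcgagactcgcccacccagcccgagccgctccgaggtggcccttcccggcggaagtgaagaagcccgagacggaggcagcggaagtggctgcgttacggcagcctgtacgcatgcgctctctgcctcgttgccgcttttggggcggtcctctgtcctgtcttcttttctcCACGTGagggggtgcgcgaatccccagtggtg
Polr1g: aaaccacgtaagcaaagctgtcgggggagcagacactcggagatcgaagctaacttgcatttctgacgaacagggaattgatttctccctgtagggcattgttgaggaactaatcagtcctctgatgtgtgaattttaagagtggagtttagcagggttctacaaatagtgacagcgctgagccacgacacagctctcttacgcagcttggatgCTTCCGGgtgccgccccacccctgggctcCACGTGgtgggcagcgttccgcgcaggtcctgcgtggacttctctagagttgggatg
Polr1e: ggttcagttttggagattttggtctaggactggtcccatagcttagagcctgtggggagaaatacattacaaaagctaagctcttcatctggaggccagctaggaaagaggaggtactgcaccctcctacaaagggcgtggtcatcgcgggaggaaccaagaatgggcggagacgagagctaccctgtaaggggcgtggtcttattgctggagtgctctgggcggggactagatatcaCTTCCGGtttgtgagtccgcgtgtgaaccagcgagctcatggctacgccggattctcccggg
Polr3k: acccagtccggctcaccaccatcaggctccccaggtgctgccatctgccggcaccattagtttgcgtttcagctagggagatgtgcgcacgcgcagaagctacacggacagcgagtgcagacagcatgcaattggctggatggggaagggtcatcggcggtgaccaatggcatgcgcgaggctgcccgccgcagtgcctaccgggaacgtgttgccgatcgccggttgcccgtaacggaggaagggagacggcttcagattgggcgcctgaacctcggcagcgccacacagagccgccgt

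Polr2f, Polr2h and Polr1g each held CACGTG once, and Polr2f, Polr1g and Polr1e each held CCGGAAG once. Neither was in the window of Polr3k. A RefSeq promoter was found for 27 of the 30 subunit genes. CACGTG, which reads the same on both strands, was in 7 of these 27 (25.9%), against 6.42% of all 33469 promoters. The 7 were Polr1g, Polr2f and Polr2h, which fell, and Polr3a, Polr3c, Polr3e and Polr3g, which did not pass. CCGGAAG on either strand was in 11 of 27 (40.7%), against 8.75% of all promoters, and 5 of these 11 genes fell (Polr1c, Polr1e, Polr1g, Polr1h and Polr2f), where 8 of the 27 genes with a promoter did. The hexamer TGTTCT, which glucocorticoid receptor sites hold, was on either strand of 4 of 27 (14.8%), against 20.7% of all promoters, and was in 1 of the 8 genes that fell. TATAAA, the TATA box core, was on either strand of 3 of 27 (11.1%), against 14.2% of all promoters, and was in 0 of those 8. Members were counted by gene and the comparison by promoter. The comparison took every promoter, whether or not its gene was on the array, and was not matched for base content or expression. The shares are therefore not of like sets, and whether the matches are particular to polymerase genes was not tested. Matches are a description of these windows, and none of the searched motifs contains another.

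Most factors that work with the polymerases did not pass. Of 129 tested genes in 7 lists of initiation, elongation, Mediator, assembly and mitochondrial transcription factors, 11 fell (8.53%) and 1 rose, against 7.77% and 11.7% of all genes, and their median log2 fold change was −0.09. Before adjustment 29 were lower at p under 0.05 (22.5%, against 16.6% of all genes), and 57 were lower in all 3 couples (44.2%, against 27.2%). Among the 8 polymerase I factors 1 fell, Taf1d, a subunit of the promoter selectivity factor. It had 1451, 1305 and 1477 with corticosterone and 2212, 1970 and 2012 with vehicle, with no overlap (log2 fold change −0.54 ± 0.07, SE; limma adjusted p = 5.6e-04), and it passed without any 1 of the couples and without the couple as a block (0.029). Of 28 general factors of polymerase II 3 fell, Gtf2a2 (−0.27), Gtf2h1 (−0.35) and Taf3 (−0.41), and Taf13 rose (0.26). Of 31 Mediator subunits Med28 (−0.29) and Med19 (−0.36) fell, of 26 elongation and pausing factors Iws1 (−0.30), of 15 polymerase III factors Gtf3c4 (−0.26), and of 16 assembly and tail-modifying genes Uri1 (−0.25). Of 5 mitochondrial transcription factors 2 fell, Tfam (−0.38), which packages mitochondrial DNA, and Tfb2m (−0.44), which opens the promoter for Polrmt. Over the 7 lists 3 genes passed without couple 1 and 3 without couple 2, with Taf1d among them each time. Without the couple as a block or without the intensity trend 1 passed, Taf1d, and after median centring of the arrays 37 were lower (28.7%, against 18.3% of all genes) and 0 higher, and Taf13 did not pass (0.12).

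**Figure D4:**
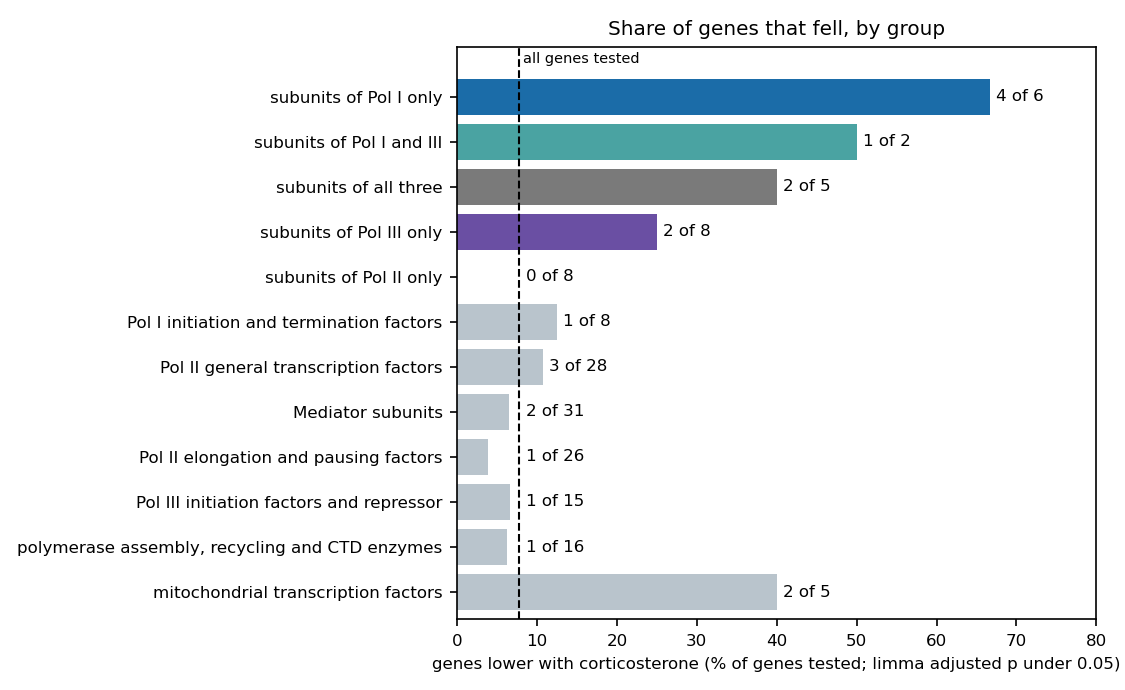
Share of genes lower with corticosterone at a limma adjusted p under 0.05 (x axis, percent of the genes tested in a group), for subunits by enzyme and for the lists of associated factors, with the number of genes beside each bar and the share over all genes tested (7.77%) as a dashed line. Subunits of polymerase I alone stand at 4 of 6 and those of polymerase II alone at 0 of 8.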

How the data were processed

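The deposited table holds 1 signal intensity per probe set and array on a linear scale, made by the authors with MAS5 per the submitters' processing notes, with settings not stated in the labels. Leaving out the 2% at either end, signals averaged 500.2 on every array, so arrays had been scaled to one mean. RNA was primed from the poly(A) tail per the labels' protocols, which weights signals to the 3′ end. Levels of different probe sets were not read as relative amounts of RNA, and marker sums were compared only between arrays.

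Control probe sets (57) were left out. Signals were taken as log2(signal + 28.6), the 25th percentile of all values, so fold changes of low genes are understated. Dropping the dimmest 40% (mean signal under 63.6) left 18625 probe sets. The model of treatment plus couple was run in limma 3.58.1 (R 4.3.3) through lmFit and eBayes, with an intensity trend of the variance and two-sided tests. The series design text states the couples, and same-numbered samples deviated together from their group means (r = 0.57, 0.52 and 0.35 across probe sets). A gene is counted by its probe set with the highest mean log2 signal. As background, the 95th percentile of signals over 27 bacterial control probe sets was used, 22.8. The number of arrays limits precision. All 30 member genes were found by identifier in RefSeq (GRCr8). Every member was named, with signals on each array for all that passed, and of each list of associated factors up to 3 genes in each direction. The members and lists were chosen with earlier results of these data known. Alternatives covered the couple term, pseudocount, filter, scaling, variance trend, probe set per gene and each couple left out.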

Additional observations from a re-analysis of the deposited data

How the results depend on the processing

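Under the alternatives run, 0 subunit probe sets passed as higher. Without the couple as a block (no pairing) 417 of all probe sets passed, against 2953 with it, and 0 subunit genes or probe sets and 1 associated factor did. Without the filter on low signals, where more probe sets are tested, 1862 of all probe sets, 7 subunit probe sets and 4 associated factors passed, and 1148 probe sets differed between couples. Without the intensity trend 1262 of all probe sets, 3 subunit probe sets, 2 subunit genes and 1 associated factor passed, and 64 differed between couples. With each array centred on its median, which shifted the median log2 fold change of all probe sets to −0.11 and the higher share of all calls to 30.4% from 59.3%, 4092 of all probe sets passed (15.3% lower, against 6.45% uncentred). There 19 subunit probe sets, 16 subunit genes and 37 associated factors passed. The median of polymerase II alone was then −0.20 and Polr2a was at −0.065, above that shift. Under quantile normalization the median of polymerase II alone was −0.056, and Polr2e, Polr2b and Polr2g were at 0.014, 0.00021 and 0.027. With 1 couple left out, 1192 to 2807 of all probe sets, 2 to 11 subunit probe sets, 2 to 9 subunit genes and 3 to 10 associated factors passed, and 760 to 2834 probe sets differed between couples. Signs turned for 6 subunits that did not pass, with ranges of −0.087 to 0.021 for Polr1a, −0.024 to 0.093 for Polr2a, −0.013 to 0.019 for Polr2g, −0.17 to 0.045 for Polr3a, −0.41 to 0.012 for Polr3b and −0.16 to 0.061 for Polr3f. Where not stated, the cause was not tested. Both other pseudocounts kept 11 subunit probe sets past, and the stricter filter kept 11 of 33, where 9.21% of all probe sets were lower. The dim probe sets of Polr1f, Polr2i and Polr3f lie nearest to background.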
